A study of Mus musculus with 17 samples.

Results

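The members are 10 genes of the myostatin, activin and Smad pathway, which were followed across 5 groups of mouse tibialis anterior muscle, the muscle at the front of the shin. They are the ligands Mstn and Tgfb1, the receptors Acvr2a and Acvr2b, the signal carriers Smad2, Smad3, Smad4 and Smad7, and the extracellular inhibitors Fst and Fstl3. A probe counted as a member when the array's annotation paired it with one of these symbols. This gave 8 probes of 25697, 1 for each of 8 of the 10 genes, out of 16593 genes with a listed probe. No probe was listed under Smad7 or Fstl3, and these genes are not analysed here.

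All muscles came from male mice aged 8 weeks and were taken at day 3, and 1 bead array was used per sample. In the immobilization experiment, 3 arrays hold mobile hindlimbs of littermate control mice, 3 hold immobilized hindlimbs of littermate controls and 3 hold immobilized hindlimbs of p53 mKO mice. No strain label is given for these mice, the labels do not spell out mKO, and there is no mobile p53 mKO group. In the transfection experiment, C57BL/6 muscles received a control plasmid on 4 arrays and a p53 plasmid on 4 arrays. The labels do not say which muscles share a mouse, nor which Cre line or plasmid promoter was used, so p-values here measure the spread between arrays, which may be in part technical.

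Myostatin is a muscle-secreted ligand that restrains muscle growth. With the activins it binds the type II receptors encoded by Acvr2a and Acvr2b, which act with type I receptors to phosphorylate Smad2 and Smad3. These enter the nucleus with Smad4 and regulate transcription, while Smad7 blocks the receptors, and follistatin (Fst) and follistatin-like 3 (Fstl3) trap the ligands. TGF-beta 1, encoded by Tgfb1, uses its own receptors and feeds into the same Smad2 and Smad3.

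Expression is given on the deposited log2 scale, where a difference of 1 is a doubling. Array medians lay between 8.48 and 8.5 in all groups, and replicate arrays correlated across probes from 0.971 to 0.998. The 8 muscle fibre markers, among them Ckm and Acta1, were bright on all 17 arrays, with means from 14.79 to 15.20. Satellite cell markers (4 listed, 3 with a probe) did not pass the filter on low values in either experiment. No probe was listed under Trp53, the gene of p53, so the labels were not checked at the targeted gene. To pass it, a probe had to exceed the 40th percentile of its array on a number of arrays no lower than the size of the smallest group, and 7 of the 8 member probes passed it in both experiments. Called, risen and fallen refer to an adjusted p under 0.05 by limma, with Benjamini-Hochberg adjustment over all probes tested.

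The main movements were in Acvr2b, Smad3 and Tgfb1. Acvr2b was highest in mobile control limbs and lower in the other 4 groups. Smad3 was high in both immobile groups and low in both plasmid groups, lowest with p53 plasmid. Tgfb1 was lowest in mobile control limbs and highest with p53 plasmid.

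**Figure D1:**
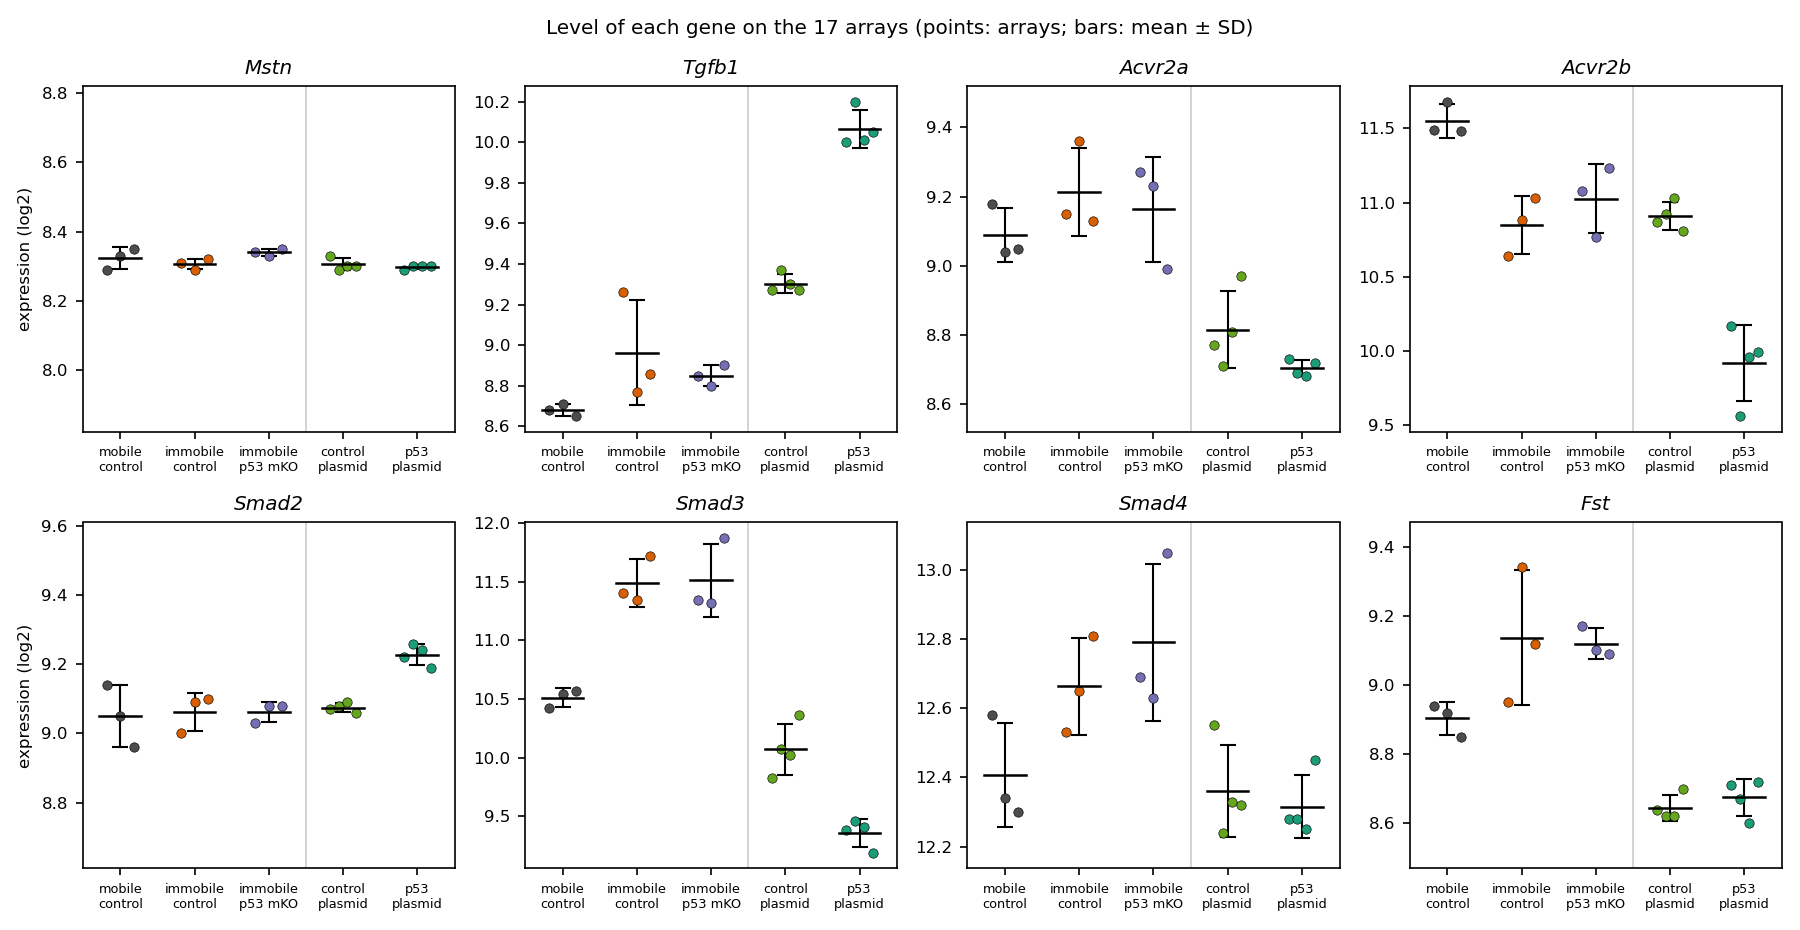
Log2 expression of the 8 genes with a probe on each of the 17 arrays. Each panel has its own vertical axis, points are arrays, and lines and bars give the group mean and SD (n = 3, or n = 4 for the plasmid groups). The Acvr2b means run from 11.55 in mobile control to 9.92 with p53 plasmid, Smad3 lies above 11.3 in both immobile groups, and Mstn stays near 8.3 everywhere.

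Of the ligands, Mstn lay at the bottom of the scale on every array. Its values were 8.29, 8.33 and 8.35 in mobile control, 8.31, 8.29 and 8.32 in immobile control and 8.34, 8.33 and 8.35 in immobile p53 mKO limbs. With control plasmid they were 8.33, 8.29, 8.30 and 8.30, and with p53 plasmid 8.29, 8.30, 8.30 and 8.30. The lowest value of any probe on any array was 8.21. The Mstn probe did not pass the filter and was not tested, so a change in myostatin mRNA was not detectable with it, and these values are no measure of how much myostatin the muscle makes.

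Tgfb1 measured 8.68, 8.71 and 8.65 in mobile control and 9.26, 8.77 and 8.86 in immobile control limbs. Immobile p53 mKO limbs gave 8.85, 8.80 and 8.90. With control plasmid it measured 9.27, 9.37, 9.30 and 9.27, and with p53 plasmid 10, 10.20, 10.01 and 10.05. Only the 2 immobile groups overlapped. Tgfb1 rose 1.70-fold with p53 plasmid over control plasmid (log2 difference 0.76 ± 0.05 SE, adjusted p = 1.41e-05 by limma, n = 4 and 4), the 676th highest difference of 15426 probes. Control plasmid muscle stood 1.54-fold above mobile control (0.62 ± 0.03, adjusted p = 9.97e-06 by limma). Neither immobile group differed from mobile control by the test, at 0.28 ± 0.11 (adjusted p = 0.172) for control limbs and 0.17 ± 0.11 (adjusted p = 0.428) for p53 mKO limbs. The first of these passed only in one fit of all 17 arrays (adjusted p = 0.0498).

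The mean level of macrophage markers differed between the groups as well. Of 10 listed, 8 had a probe and were tested, and the mean of these ran from 9.70 to 9.81 in mobile control, 10.16 to 11.56 in immobile control and 10.22 to 10.82 in immobile p53 mKO limbs. It ran from 11.13 to 11.46 with control plasmid and from 12.31 to 12.43 with p53 plasmid. Immobile control array 1 and p53 plasmid array 2 each had both the highest Tgfb1 value and the highest macrophage mean of their group. In each of the other groups these were different arrays. Mobile control array 2 (8.71 and 9.70) and immobile p53 mKO array 3 (8.90 and 10.22) had the highest Tgfb1 value but the lowest macrophage mean. With p53 plasmid, 7 of the 8 markers rose and 0 fell, including the F4/80 gene Adgre1 (1.27) and C1qa (1.18), while Cd163 differed by -0.03. In control plasmid muscle against mobile control 7 rose and Cd163 fell (-0.655 ± 0.09), opposite to Tgfb1. There 17.8% of all probes rose and 27.4% fell. With immobilization of control limbs 1 of the 8 was called, Mrc1 (1.29 ± 0.21), where 10.1% of all probes were called. None of the 8 was below the filter on any plasmid array. For p53 plasmid against control plasmid, 2 of 6 tested fibroblast markers rose, 1 of 2 neutrophil markers rose and 3 of 3 endothelial markers fell. In that comparison 29.7% of all probes rose and 28.4% fell. The part of macrophages and these other cells in the Tgfb1 difference was not tested, and in whole muscle more cells of a type and more RNA per cell cannot be told apart.

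**Figure D2:**
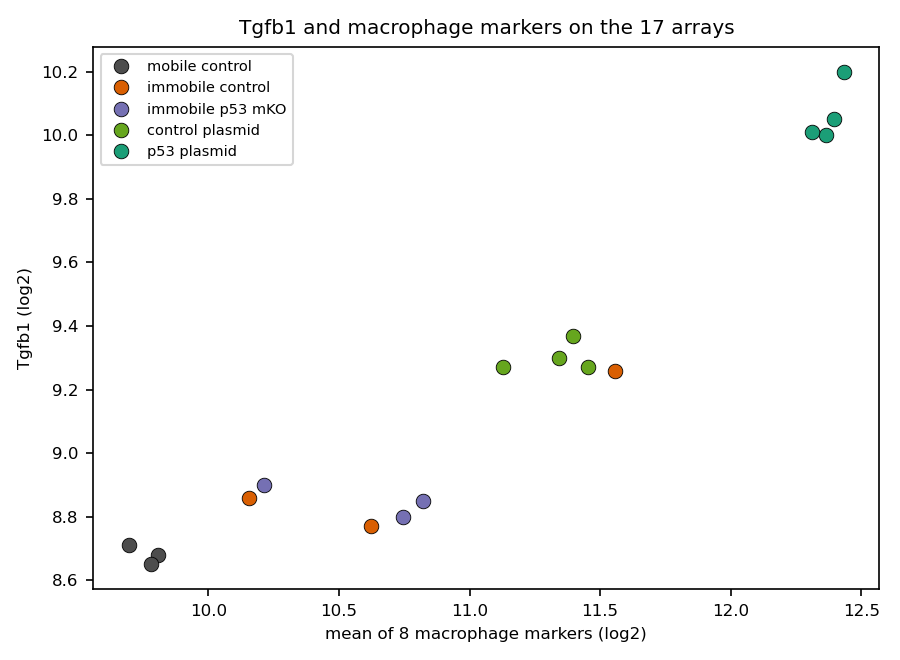
Tgfb1 (log2, vertical) against the mean of 8 macrophage markers (log2, horizontal) on the 17 arrays, coloured by group. The 4 p53 plasmid arrays lie at 12.31 or more on the marker axis and at 10 or more for Tgfb1, and immobile control array 1 (11.56 and 9.26) lies beside the control plasmid arrays.

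Of the receptors, Acvr2b, which encodes the type II receptor ActRIIB, had the larger differences. It measured 11.49, 11.68 and 11.48 in mobile control, 10.64, 10.88 and 11.03 in immobile control and 11.08, 10.77 and 11.23 in immobile p53 mKO limbs. With control plasmid it measured 10.87, 10.92, 11.03 and 10.81, and with p53 plasmid 10.17, 9.56, 9.96 and 9.99. The mobile control values lay above and the p53 plasmid values below all others, and the 3 groups between them overlapped. Acvr2b fell 1.62-fold with immobilization of control limbs (log2 difference -0.70 ± 0.14 SE, adjusted p = 0.0174 by limma, n = 3 and 3), the 264th lowest difference of 16036 probes. Omitting mobile control array 2 (adjusted p = 0.0775) or array 3 (adjusted p = 0.0517) ended the call. Immobile p53 mKO limbs were also lower than mobile control in every array, by 0.52 ± 0.14, and did not pass (adjusted p = 0.0568 by limma).

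With p53 plasmid Acvr2b fell 1.98-fold below control plasmid (-0.99 ± 0.12, adjusted p = 0.00019 by limma, n = 4 and 4), the 287th lowest difference of 15426. This call held on omission of any 1 of the 8 arrays, with differences from -1.07 to -0.87. Control plasmid muscle was 1.56-fold below mobile control (-0.64 ± 0.07, adjusted p = 0.000193 by limma). In the same p53 plasmid muscles 4 of 8 muscle fibre markers fell and 0 rose, where 28.4% of all probes fell and 29.7% rose. The mean of these markers ran from 14.79 to 14.94, against 15.06 to 15.12 with control plasmid. The part of this in the Acvr2b difference was not tested.

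Acvr2a, the other type II receptor gene, moved less. Its values were 9.18, 9.04 and 9.05 in mobile control, 9.15, 9.36 and 9.13 in immobile control and 9.27, 9.23 and 8.99 in immobile p53 mKO limbs. They were 8.77, 8.71, 8.81 and 8.97 with control plasmid and 8.73, 8.69, 8.68 and 8.72 with p53 plasmid. The 2 plasmid groups overlapped each other and lay below all arrays of the immobilization experiment. Immobilization gave a difference of 0.12 ± 0.09 (adjusted p = 0.475) and p53 plasmid one of -0.11 ± 0.05 (adjusted p = 0.105, and adjusted p = 0.0409 without control plasmid array 2). Control plasmid muscle was below mobile control by -0.28 ± 0.07 (log2, adjusted p = 0.0106 by limma).

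Among the Smads, Smad3 differed most and moved in opposite directions in the 2 experiments. It measured 10.42, 10.54 and 10.57 in mobile control, 11.40, 11.34 and 11.72 in immobile control and 11.34, 11.32 and 11.87 in immobile p53 mKO limbs. With control plasmid it measured 9.83, 10.07, 10.02 and 10.36, and with p53 plasmid 9.38, 9.46, 9.41 and 9.19. From the top, the order was the 2 immobile groups, which overlapped, then mobile control, control plasmid and p53 plasmid, with no overlap between these.

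Smad3 rose 1.97-fold in immobile over mobile control limbs (log2 difference 0.98 ± 0.16 SE, adjusted p = 0.00866 by limma, n = 3 and 3), the 110th highest difference of 16036 probes. In immobile p53 mKO limbs it stood 1.00 ± 0.16 above the same mobile arrays (adjusted p = 0.00913 by limma), the 68th highest. Both calls held on omission of any single array, the highest adjusted p being 0.0383 and 0.0431. With p53 plasmid Smad3 fell 1.64-fold below control plasmid (-0.71 ± 0.11, adjusted p = 0.000666 by limma), and this held in all 8 omissions of an array. Control plasmid muscle was below mobile control by -0.44 ± 0.11 (adjusted p = 0.0138), a call lost without mobile control array 2 (adjusted p = 0.0508) or array 3 (adjusted p = 0.0503).

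In one fit of the 17 arrays, the response of Smad3 to immobilization minus its response to p53 plasmid was 1.69 ± 0.20 (adjusted p = 0.000154 by limma, of 14809 probes tested with 23% called). The same difference was -0.48 ± 0.12 for Tgfb1 (adjusted p = 0.0133), whose difference was larger with the plasmid. For Acvr2b, which was lower in both, it was 0.29 ± 0.19 (adjusted p = 0.322) and did not pass. This test was chosen after the values were seen.

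Smad4, the common partner of the receptor-activated Smads, measured 12.58, 12.34 and 12.30 in mobile control, 12.53, 12.65 and 12.81 in immobile control and 12.69, 12.63 and 13.05 in immobile p53 mKO limbs. It measured 12.55, 12.24, 12.33 and 12.32 with control plasmid and 12.28, 12.28, 12.25 and 12.45 with p53 plasmid. Only the p53 mKO arrays lay wholly above mobile control, by 0.38 ± 0.13, which did not pass (adjusted p = 0.124, and adjusted p = 0.0354 in one fit of 17 arrays). The difference with p53 plasmid was -0.05 ± 0.07 (95% interval -0.21 to 0.12).

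Smad2, the other carrier of myostatin and TGF-beta signals, was at 9.14, 9.05 and 8.96 in mobile control, 9, 9.09 and 9.10 in immobile control and 9.03, 9.08 and 9.08 in immobile p53 mKO limbs. With control plasmid it measured 9.07, 9.08, 9.09 and 9.06, and with p53 plasmid 9.22, 9.26, 9.24 and 9.19. It rose 1.11-fold with p53 plasmid (0.15 ± 0.02, adjusted p = 0.000569 by limma, all 4 arrays above all 4 controls). For immobilization the difference was 0.01 ± 0.05, with an interval from -0.11 to 0.13 that leaves out a measured difference as large as that of Smad3. Smad2 was dimmer than Smad3, and differences near the bottom of the scale are compressed. The interval therefore does not exclude such a change in its mRNA.

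Fst, the gene of the ligand trap follistatin, measured 8.94, 8.92 and 8.85 in mobile control, 8.95, 9.34 and 9.12 in immobile control and 9.17, 9.10 and 9.09 in immobile p53 mKO limbs. With control plasmid it measured 8.64, 8.62, 8.62 and 8.70, and with p53 plasmid 8.71, 8.67, 8.60 and 8.72. All immobile arrays lay above all mobile arrays, by 0.23 ± 0.09 in control limbs (adjusted p = 0.154) and by 0.22 ± 0.09 in p53 mKO limbs (adjusted p = 0.2), and neither passed. Without immobile control array 1 the first of these was 0.33 ± 0.07 and passed (adjusted p = 0.0312). The difference with p53 plasmid was 0.03 ± 0.03 (adjusted p = 0.482), and control plasmid muscle was lower than mobile control by -0.26 ± 0.04 (adjusted p = 0.000721 by limma).

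**Figure D3:**
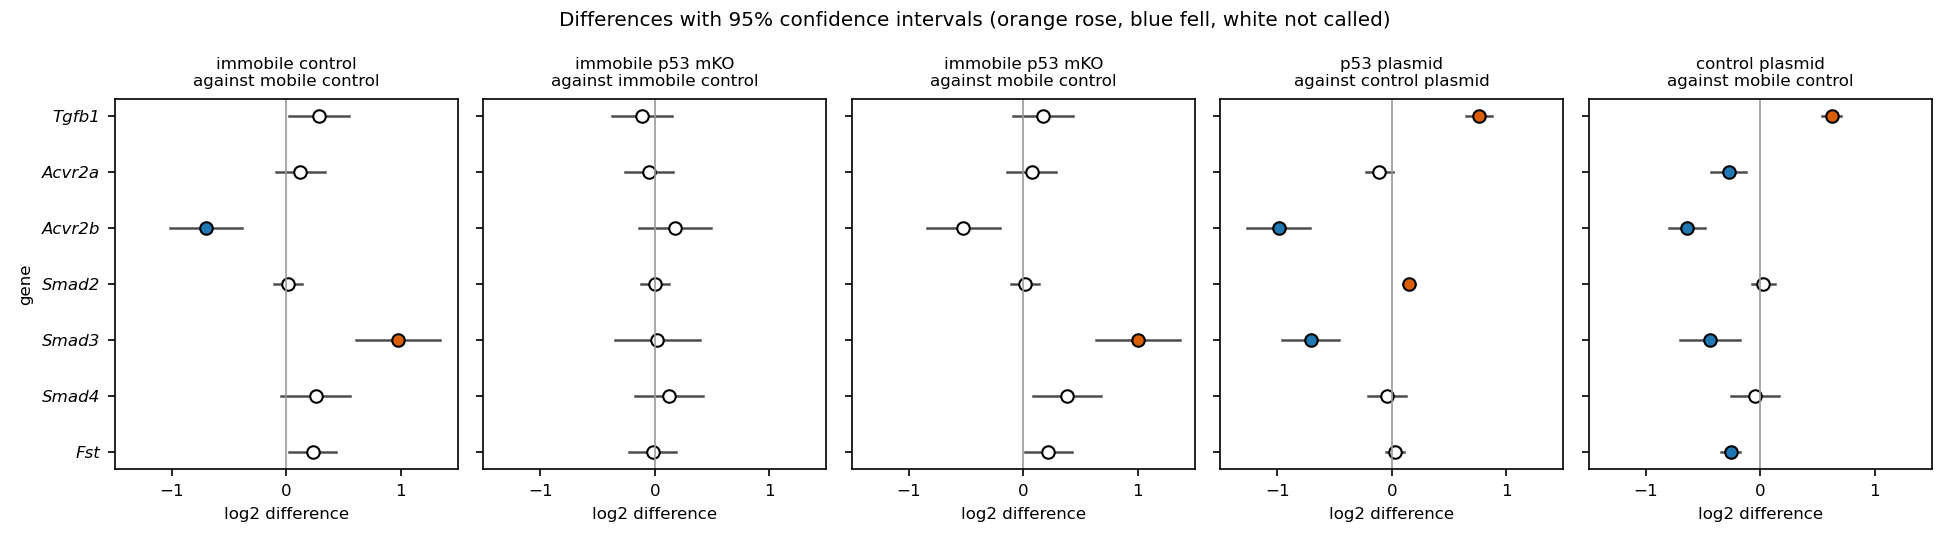
Log2 differences (horizontal) of the 7 tested genes in the 5 comparisons, with 95% confidence intervals from limma. Orange points rose, blue points fell and white points were not called. Smad3 is at 0.98 for immobilization and -0.71 for p53 plasmid, and no gene is called between immobile p53 mKO and immobile control limbs.

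Counted over the 7 tested members, 1 rose and 1 fell with immobilization of control limbs, where 10.1% of all probes were called (4.08% rose and 6.06% fell). In immobile p53 mKO limbs against mobile control 1 rose and 0 fell, where 8.5% of all probes were called (3.5% rose and 5% fell). These 2 comparisons share the mobile control arrays. With p53 plasmid 2 rose and 2 fell, a share of 57.1% where 58.1% of all probes were called (29.7% rose and 28.4% fell), so the members as a set were called about as often as other probes. Control plasmid against mobile control gave 1 risen and 4 fallen, where 45.2% of all probes were called (17.8% rose and 27.4% fell), and there the plasmid, the experiment and the strain label cannot be told apart.

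Between immobile p53 mKO and immobile control limbs 0 of the 7 members were called, as were 0 of all 16036 probes by limma (0% called). Without adjustment, 473 probes and 0 members had a limma p under 0.05. That is fewer probes than this threshold passes on average when no probe differs. The fit took the arrays as unpaired, while same-numbered arrays of these 2 groups deviated together (r = 0.627, 0.543 and 0.844 across probes). The part of this in the count and in the errors below was not tested. The differences were 0.18 ± 0.14 for Acvr2b, 0.02 ± 0.16 for Smad3, 0.13 ± 0.13 for Smad4, -0.11 ± 0.11 for Tgfb1, -0.05 ± 0.09 for Acvr2a, -0.02 ± 0.09 for Fst and 0 ± 0.05 for Smad2. For Smad3 the 95% interval ran from -0.34 to 0.39, and for Acvr2b from -0.14 to 0.49. The first interval leaves out a difference as large as the Smad3 rise with immobilization (0.98), and the second one as large as the Acvr2b fall (-0.70). They do not show that the limbs were alike.

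The windows around the start sites of Acvr2b and Smad3, the members that were called for both immobilization and p53 plasmid, are printed from RefSeq (GRCm38.p6), each with 250 bases before and 50 bases from the start. Acvr2b is at chr9:119401928-119402227 on the plus strand, and Smad3 at chr9:63757945-63758244 on the minus strand. The annotated genes span chr9:119401583-119442148 and chr9:63646766-63757994, so the Acvr2b window lies inside the annotated span of that gene. Capitals mark matches to CAGAC, the core of the element that Smad proteins bind, on either strand.
Acvr2b: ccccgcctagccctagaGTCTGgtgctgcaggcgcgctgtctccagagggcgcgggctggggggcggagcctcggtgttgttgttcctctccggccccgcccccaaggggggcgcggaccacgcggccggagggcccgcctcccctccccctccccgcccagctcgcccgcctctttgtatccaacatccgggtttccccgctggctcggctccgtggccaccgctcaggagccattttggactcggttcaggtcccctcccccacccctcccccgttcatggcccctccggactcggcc
Smad3: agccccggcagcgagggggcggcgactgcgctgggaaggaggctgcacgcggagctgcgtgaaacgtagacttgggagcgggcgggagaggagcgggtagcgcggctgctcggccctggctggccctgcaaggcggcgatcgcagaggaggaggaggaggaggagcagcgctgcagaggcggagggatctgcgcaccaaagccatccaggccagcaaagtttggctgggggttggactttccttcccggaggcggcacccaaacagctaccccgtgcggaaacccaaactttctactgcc
CAGAC occurred on either strand in 49.6% of 32817 such windows. It occurred once in the Acvr2b window, beginning at position -233 from the start and read there on the opposite strand, and 0 times in that of Smad3. Neither window held the E-box CANNTG (72.3% of all windows), the FoxO site GTAAACA (3.65%) or a p53 half-site (8.36%), each searched on both strands, so no matches overlapped. A missing match says only that these letters are not in the window.

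The wider pathway was described with 68 other genes in 5 lists, of which 62 had a probe. For immobilization, 9 of 82 tested probes rose and 4 fell (15.9% called, where 10.1% of all probes were), with a median difference of 0.00. The risen genes included TGF-beta receptors. In the same limbs the macrophage marker mean was 10.78 against 9.76 in mobile control, and its part in the pathway differences was not tested. Tgfbr1, the type I receptor, rose on 2 of its 3 tested probes (0.98 ± 0.09 and 0.43 ± 0.04, adjusted p = 0.000689 and 0.00134 by limma), and Tgfbr2, the type II receptor, by 0.48 ± 0.11 (adjusted p = 0.0289). The co-receptor Tgfbr3 rose by 0.34 ± 0.07 on 1 probe. Tgif1, a repressor that binds Smads, rose by 1.14 ± 0.12 and by 0.20 ± 0.05 on its 2 called probes. Furin, a protease that cleaves pro-myostatin and pro-TGF-beta, rose by 0.32 ± 0.08 on its 1 called probe.

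Nedd4l, a ubiquitin ligase that acts on Smad2 and Smad3, fell by 0.60 on the log2 scale (SE 0.08, adjusted p = 0.00303 by limma) with immobilization. The inhibitory Smad gene Smad6 fell on both tested probes, from 9.09 to 8.81 and from 8.60 to 8.46. Among target genes Id2 rose on 1 probe (0.32 ± 0.06), a further Id2 probe was not called, and Junb rose (1.91 ± 0.42). Id1 differed by -0.24 ± 0.08 (adjusted p = 0.124). Of the activin subunit genes, Inhba differed by -0.03 ± 0.03 and Inhbb by 0.04 ± 0.05, both dim. Of these 13 calls, 4 held on omission of any single array. They were both Tgfbr1 probes, the Tgif1 probe with the larger rise and Nedd4l. Immobile p53 mKO limbs gave 9 risen and 2 fallen probes against the same mobile arrays (13.4% called, where 8.5% of all probes were), with Tgfbr1 at 0.85 ± 0.09 and 0.57 ± 0.04, Tgif1 at 1.2 ± 0.12 and Nedd4l at -0.56 ± 0.08. Against immobile control limbs 0 of the 82 pathway probes were called.

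With p53 plasmid 27 of 79 tested pathway probes rose and 22 fell, 62% called where 58.1% of all probes were. Of the 8 tested ligand probes outside the members 0 rose and 4 fell, a share of 50% called. Of all probes 29.7% rose and 28.4% fell. The member Tgfb1, a ligand gene not counted here, rose. Bmp4 fell most (-0.59 ± 0.04, adjusted p = 2.32e-05 by limma), with Tgfb3 (-0.35 ± 0.09), Tgfb2 (-0.16 ± 0.03) and Inha (-0.09 ± 0.02). The Tgfb2 and Inha calls were lost in one fit of 17 arrays. Among receptors, Tgfbr1 rose by 0.74 ± 0.09 and Tgfbr2 by 0.53 ± 0.05. A further called Tgfbr1 probe rose less, by 0.25 to 0.35 with 1 array omitted. One probe of the co-receptor Tgfbr3 fell (-0.10 ± 0.04, adjusted p = 0.0426 by limma), a call kept in 2 of 8 omissions of an array. The BMP type I receptor genes fell, Bmpr1a by 0.75 and 0.23 and Bmpr1b by 0.21 and 0.19 (log2) on 2 probes each. The named Tgfbr1, Tgfbr2, Bmpr1a and Bmpr1b probes kept their calls in all 8 omissions of an array, but both Bmpr1b probes and the Bmpr1a probe with the smaller fall lost theirs in one fit of 17 arrays.

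Of the intracellular regulators, Ppm1a, a phosphatase reported to act on Smad2 and Smad3, fell with p53 plasmid on 3 probes (-0.71 ± 0.07, -0.75 ± 0.10 and -0.74 ± 0.07). Tgif1 rose (0.59 ± 0.07), as did Smad1, which carries BMP signals (0.18 ± 0.04 and 0.24 ± 0.05), while Smad6 fell (-0.21 ± 0.03). Further called probes moved less. With 1 array omitted they gave 0.235 to 0.262 and 0.079 to 0.11 for Tgif1, and -0.085 to -0.062 for Smad6. Fbxo30, a ubiquitin ligase of mouse muscle atrophy that BMP signals restrain, fell by 0.29 on the log2 scale. In immobile p53 mKO limbs against mobile control the same probe was called as risen (adjusted p = 0.0487 by limma). With 1 array omitted that rise was 0.58 to 0.87, and the call was kept in 0 of 6 omissions. The p53 plasmid calls of Fbxo30 and of both Smad1 probes were lost in one fit of 17 arrays. Among 10 probes of target genes 8 rose and 0 fell, where 29.7% of all probes rose and 28.4% fell. Tgfbi, induced by TGF-beta, rose by 1.42 ± 0.09 and 1.61 ± 0.07, Id2 by 1.08 ± 0.05 and Id1 by 0.63 ± 0.17. A further Id2 probe rose less, by 0.32 to 0.48 with 1 array omitted. The macrophage means given for Tgfb1 apply to these target genes too, and their part in the rises was not tested.

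Extracellular genes were mixed with p53 plasmid, 5 probes rising and 5 falling of 20 (50%, where 58.1% of all probes were called). Furin (0.57 ± 0.04) and the TGF-beta activator Thbs1 (0.52 ± 0.05) rose, and Chrd, a BMP antagonist (-0.38 ± 0.07), and the latent TGF-beta binding protein gene Ltbp3 (-0.54 ± 0.08) fell. With 1 array omitted, further called probes moved less, at 0.11 to 0.17 for Furin and -0.13 to -0.091 for Ltbp3. For Ltbp4 the probes disagreed, at -0.46 ± 0.12 and 0.58 ± 0.08. In control plasmid muscle against mobile control, 14 of 79 pathway probes rose and 22 fell (45.6%, where 45.2% of all probes were called). Ltbp4 had the largest of these falls, -2.03 ± 0.09 and -1.13 ± 0.11 on 2 of its probes, and Tgfbi the largest rise (1.32 ± 0.09).

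**Figure D4:**
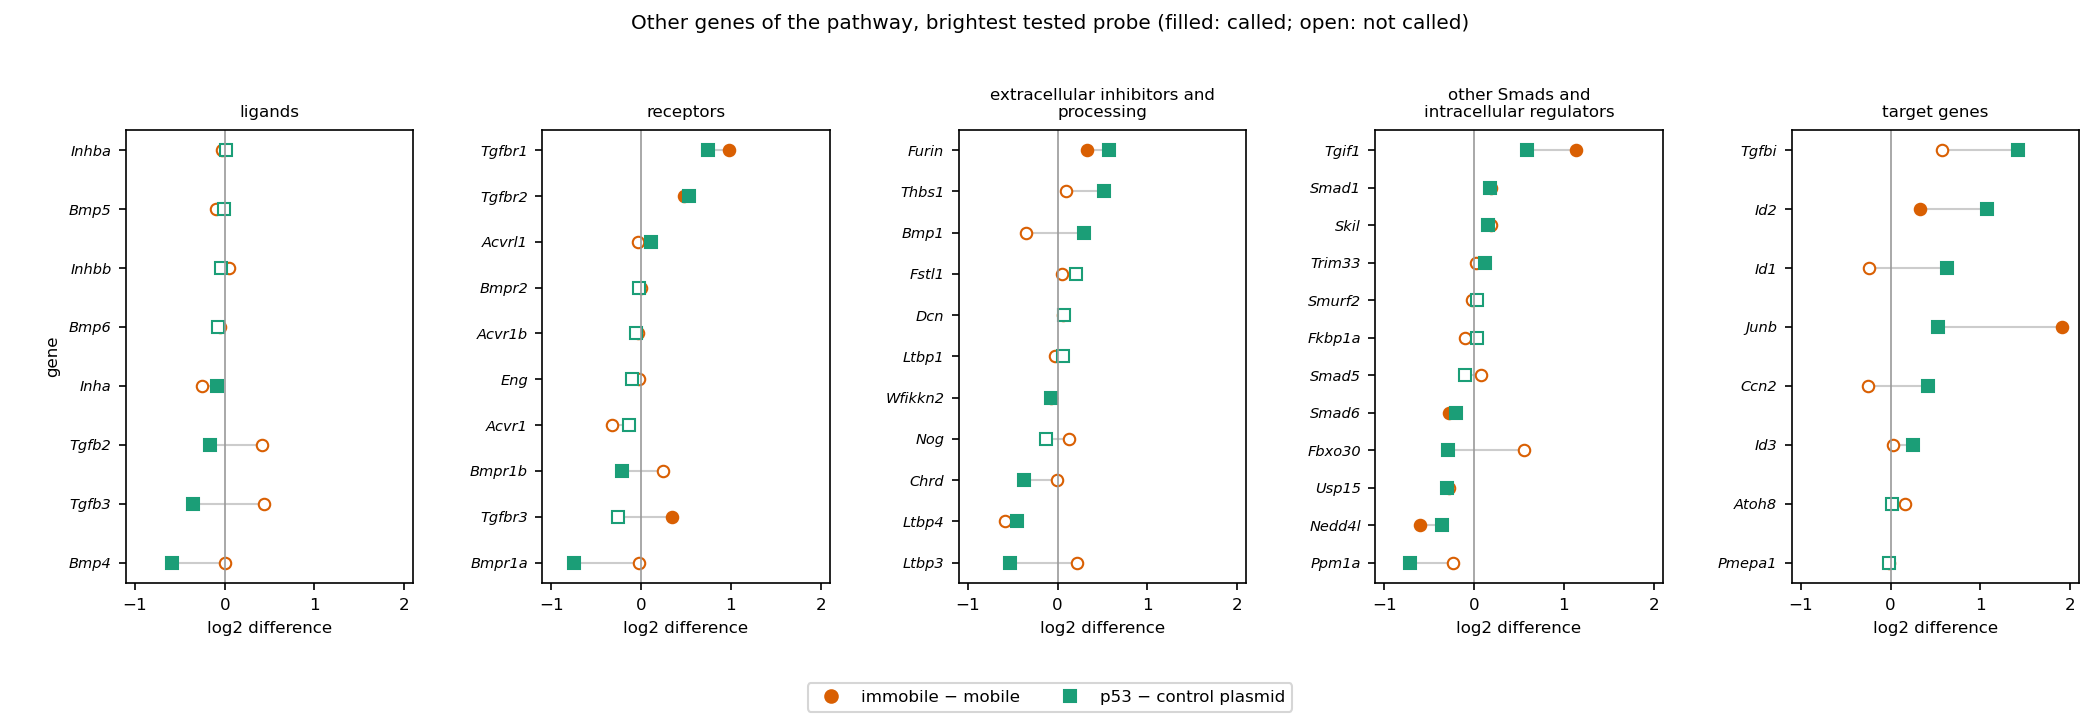
Log2 differences (horizontal) of the pathway genes outside the members, by role, each on its brightest probe tested in both experiments. Circles are immobile minus mobile control and squares are p53 plasmid minus control plasmid, and filled symbols were called. Tgfbr1, Tgfbr2, Furin, Tgif1, Id2 and Junb are filled and above 0 for both, and Nedd4l and Smad6 are filled and below 0 for both. The Nedd4l call with p53 plasmid (adjusted p = 0.0375 by limma) was kept in 3 of 8 omissions of an array and lost with no filter.

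The genes whose levels followed the members most closely were sought among 16071 named probes by Pearson correlation over the 17 arrays, which fall into the 5 groups and 2 experiments. For Smad3 they were Gabarapl1, an autophagy gene (r = 0.986), Lrba (0.979) and Castor2 (0.979). Gabarapl1 differed by 0.62 ± 0.14 with immobilization and by -0.36 ± 0.09 with p53 plasmid, and Castor2 by 1.01 ± 0.26 and -0.95 ± 0.06. For Acvr2b they were the phospholipid transporter Abcb4 (r = 0.989), the phosphatase Dusp23 (0.982) and Nudt19 (0.982). Abcb4 fell by 0.86 with immobilization and by 1.14 with p53 plasmid (log2). For Fst they were Gpx3, a secreted glutathione peroxidase (r = 0.964), the macrophage receptor Cd163 (0.947) and Josd1 (0.942), but over the 8 transfection arrays alone Cd163 had r = 0.567 and Josd1 r = 0.269.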

How the data were processed

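Single-colour bead arrays measured 17 muscles, 1 array each. TRIzol was used for extraction per the labels' protocols, and the RNA was column-purified with DNase, amplified and labelled with biotin. The authors deposited log2 values, taken as log2 from their range of 8.21 to 15.61. The background correction, normalization and log base are not given in the sources used here. A floor near the lowest value compresses differences of dim probes. No detection values were used, and precision is limited by how many arrays there were.

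Symbols came from a probe table (23978 probes with 1 symbol, 0 with several, 1719 unnamed) and were updated by gene identifier, 99.93% matching. Of the member genes, 8 of 10 had a probe. Every probe passing the filter was fitted in R 4.3.3 with limma 3.58.1 (lmFit, then eBayes), separately for the 9 immobilization arrays, the 8 transfection arrays, and the 7 arrays of control plasmid and mobile control. P-values were adjusted over all probes of a fit, at a threshold of 0.05. The code was tested on simulated data. Errors are standard errors of the fit. The members, lists and tests were chosen with earlier results of these data known. Genes named are the members, pathway genes called in at least 1 comparison with a fixed set of others, of which a selection is printed, and the 3 closest genes to each of 3 members. The rule also asked for those closest to Mstn, left out because its probe did not pass the filter. Alternatives were no filter, 1 probe a gene, quantile normalization, one fit of 17 arrays, array weights, an intensity trend, the replicate number as a block, and each array left out. Same-numbered arrays of immobile p53 mKO and immobile control limbs deviated together (r = 0.627, 0.543 and 0.844 across probes). The numbers may therefore pair these groups, which the labels do not state, and a match by chance was not tested. For p53 plasmid and control plasmid the same-numbered r ran from 0.0314 to 0.23, and control plasmid against mobile control was not measured in this way.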

Additional observations from a re-analysis of the deposited data

Results flagged for a closer look

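In a group of 4 arrays, a lone array was noted when its gap to the next, as a share of the group's range, exceeded the 95% limit of Dixon's test, which chance gives in about 1 of 20 groups. Smad4 measured 12.45 on p53 plasmid array 4, above the other 3 at 12.25 to 12.28. The mean of the muscle fibre markers was 14.79 on p53 plasmid array 2, below the other 3 at 14.94, and the same array had the lowest Acvr2b value of its group (9.56) and the highest Tgfb1 value (10.20). Mstn measured 8.29 on p53 plasmid array 1 and 8.30 on the other 3, a gap of 1 step of the deposited decimals.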

How the results depend on the processing

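Over the 5 comparisons, 479 recomputed member differences did not change sign or side of the threshold. A further 12 gained a call, 5 lost one and 15 changed sign, none of the 15 called. A difference of 0 counted as no change of sign. This holds for Smad2 between the immobile groups, at 0 in the main fit and from -0.032 to 0.018 with 1 array left out. For immobilization, member calls went from 2 to 4 in one fit of 17 arrays and with array weights, all probes from 1626 to 2889 and 3480, and pathway probes from 13 to 20 and 26. The replicate block was fitted on the 2 groups alone, which without it gave 2 members, 1186 probes and 8 pathway probes, and with it 1, 359 and 3. The block ended the Acvr2b call there (adjusted p = 0.0630), with fewer residual degrees of freedom. Array weights called Fst (0.39) and Acvr2a (0.24). Leaving out 1 array gave 1 to 3 members, 762 to 1588 probes and 4 to 12 pathway probes, each lowest without mobile control array 2. For immobile p53 mKO against mobile control, members went from 1 to 3 in one fit of 17 arrays (Acvr2b and Smad4 added), 2 with array weights (Acvr2b) and 4 with the 2 groups alone (Acvr2b, Tgfb1 and Fst), a setting added after seeing the data, and 1 with these and the replicate block. All probes went from 1363 to 2517, 2921 and 2047, and pathway probes from 11 to 19 and 22. Leaving out 1 array gave 545 to 888 probes and 4 to 8 pathway probes, again lowest without mobile control array 2. With 1 probe a gene, or in one fit of 17 arrays, the pathway calls for p53 plasmid went from 49 to 32 and for control plasmid against mobile control from 36 to 23. Except where shown by the construction, the cause was not tested.

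With the numbers taken to pair immobile p53 mKO with immobile control limbs, the fit with a replicate block called 0 members and 0 probes, so it changed no call there. It gave Smad3 0.02 ± 0.05 and Smad4 0.13 ± 0.06. Between the same limbs Tgfb1 changed sign with array weights (0.013), and members changed sign when 1 array was left out, running from -0.16 to 0.14 for Smad3, -0.21 to 0.035 for Tgfb1, -0.10 to 0.037 for Acvr2a, -0.11 to 0.085 for Fst and -0.0033 to 0.21 for Smad4. With 1 array left out, Smad2 ran from -0.032 to 0.058 for immobilization, from -0.032 to 0.058 for immobile p53 mKO against mobile control and from -0.02 to 0.07 for control plasmid against mobile control, and Smad4 from -0.09 to 0.018 for p53 plasmid and from -0.11 to 0.04 for control plasmid against mobile control. Signal near the floor limits Mstn, Tgfb1, Fst, Acvr2a and Smad2.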
